A study of Coryphaena hippurus with 32 samples.

Results

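The genes described here encode 8 carrier and plasma proteins that vertebrate livers secrete: TF, CP, RBP4, APOB, FETUB, ITIH2, C8G and C3. They were found by their symbols in the authors' deposited comparison tables, whose human gene identifiers were then looked up in the count table, and they are 8 of 10998 gene features with at least 1 count. Mahi-mahi (Coryphaena hippurus), a fast-growing marine fish, was sampled as whole embryos or larvae, and each replicate pooled 30 animals. Freshly fertilized embryos of natural spawns were kept in seawater with slick oil (weathered oil skimmed from the sea surface), with source oil (labelled Mass) or with no oil. The slick and source groups carry a concentration of 1 g/l in the labels and the control groups 0 g/l, and animals were sampled at 24, 48 and 96 hours post fertilization (hpf). Below, embryos means animals of 24 or 48 hpf and larvae those of 96 hpf. These words name the sampling time only, not whether the animals had hatched. There were 27 distinct libraries, 3 in each of the 9 groups of oil and stage, after 5 pairs of control samples without a detectable difference beyond sampling noise were each counted as 1 sample.

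Plasma proteins carry what does not travel freely in blood. Transferrin (TF) binds iron, ceruloplasmin (CP) carries copper and oxidizes iron, RBP4 carries retinol and APOB is the structural protein of lipid-carrying lipoproteins. In zebrafish, before the liver takes over, the yolk syncytial layer that surrounds the yolk already makes several of these proteins, APOB, TF and RBP4 among them. Because whole animals were pooled, which cells held the RNA was not measured, and fewer cells of a type and less RNA per cell cannot be told apart.

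The deposited samples held 5425111 to 8884058 counts over all table lines, and 1823727 to 2560303 once 1 line was kept per gene. Levels are given as CPM, each library's counts scaled to a common library total, after TMM scaling over all 27 libraries, and they were not compared between genes, because gene lengths were not used here. Of the members, 7 had between 7676 and 50124 counts in all, while C3 had 98. The counts of TF stood unchanged under another human identifier as well, 4057, so reads of TF and of a relative could not be told apart. Albumin (ALB) had no counted line, so the best-known liver plasma protein gave no value. Among the slick libraries of 48 hpf replicate 4 stood apart, with a chi-square per degree of freedom of 2.82 and 3.03 against replicates 5 and 6, which differed from each other by 1.33. Without it all 7 tested members were still called lower than in controls at 48 hpf, with log2 changes between -0.57 for C8G and -0.31 for FETUB, and 5 in place of 3 were called lower than in source oil. Of 15 transcription factors of hepatocytes 14 had a counted line, and of 23 hepatocyte enzymes 18 had a counted line.

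In controls the members' levels differed widely between stages. Between 24 and 48 hpf 6 of 8 members rose and 2 fell, against 25.0% of 8898 features called higher and 22.9% called lower. The rise of C3, whose 24 hpf controls held no counts, was lost with DESeq2 and in 4 of 6 fits without 1 library (control replicate 1, 2 or 3, or control replicates 6 and 7). Between 48 and 96 hpf 6 of 8 members fell and none rose, where 27.4% of features were called lower, 34.9% higher and the median over all features was 0.05 on the log2 scale. TF fell to 0.0932 times its 48 hpf level (log2 change -3.42, SE 0.0658, edgeR adjusted p = 4.6e-70), FETUB to 0.104 times (log2 change -3.27, SE 0.0716, edgeR adjusted p = 5.5e-65) and APOB to 0.116 times (log2 change -3.11, SE 0.11, edgeR adjusted p = 4.6e-47). RBP4 was not called over the same interval (log2 change 0.08, SE 0.0554, edgeR adjusted p = 0.19), nor was C3 (log2 change 0.91, SE 0.59, edgeR adjusted p = 0.17). All 3 control libraries at 96 hpf lay outside the range of those at 48 hpf for each of these genes except C3.

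In slick oil the members that passed the test were all lower at 48 hpf, and at 96 hpf some were higher and others lower. At 24 hpf no member passed edgeR's test in slick oil (0 of 7 tested, beside 0.58% of 7757 features) or in source oil (0 of 7, beside 1.69%), nor did any with DESeq2. An unadjusted edgeR p below 0.05 was found for 2 in slick and none in source oil, beside 653 and 925 of 7757 features. At 48 hpf all 7 tested members were lower in slick oil than in controls, where 1.82% of 8060 features were called lower and 1.48% higher. At 96 hpf 5 of 8 members were higher in slick oil and 2 lower, beside 10.9% and 10.4% of 8511 features. In source oil 4 of 7 members were lower at 48 hpf (beside 0.658% of features called lower and 0.658% higher), and 2 of 8 were higher and none lower at 96 hpf (beside 0.517% of features called higher and 0.587% lower). The median log2 change of the tested members was -0.06, -0.48 and 0.37 in slick oil at 24, 48 and 96 hpf, and -0.03, -0.20 and 0.22 in source oil, while the medians over all features tested lay within 0.01 of 0. With all table lines of a gene summed, edgeR called 3 of the 7 in slick oil at 48 hpf (TF, RBP4 and ITIH2), and 0 in source oil at 48 and at 96 hpf. Summing adds identical counts again: the 2 lines of RBP4 were identical, with 50124 counts in each and 100248 summed. The effect of this repetition on the calls was not tested.

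**Figure D1:**
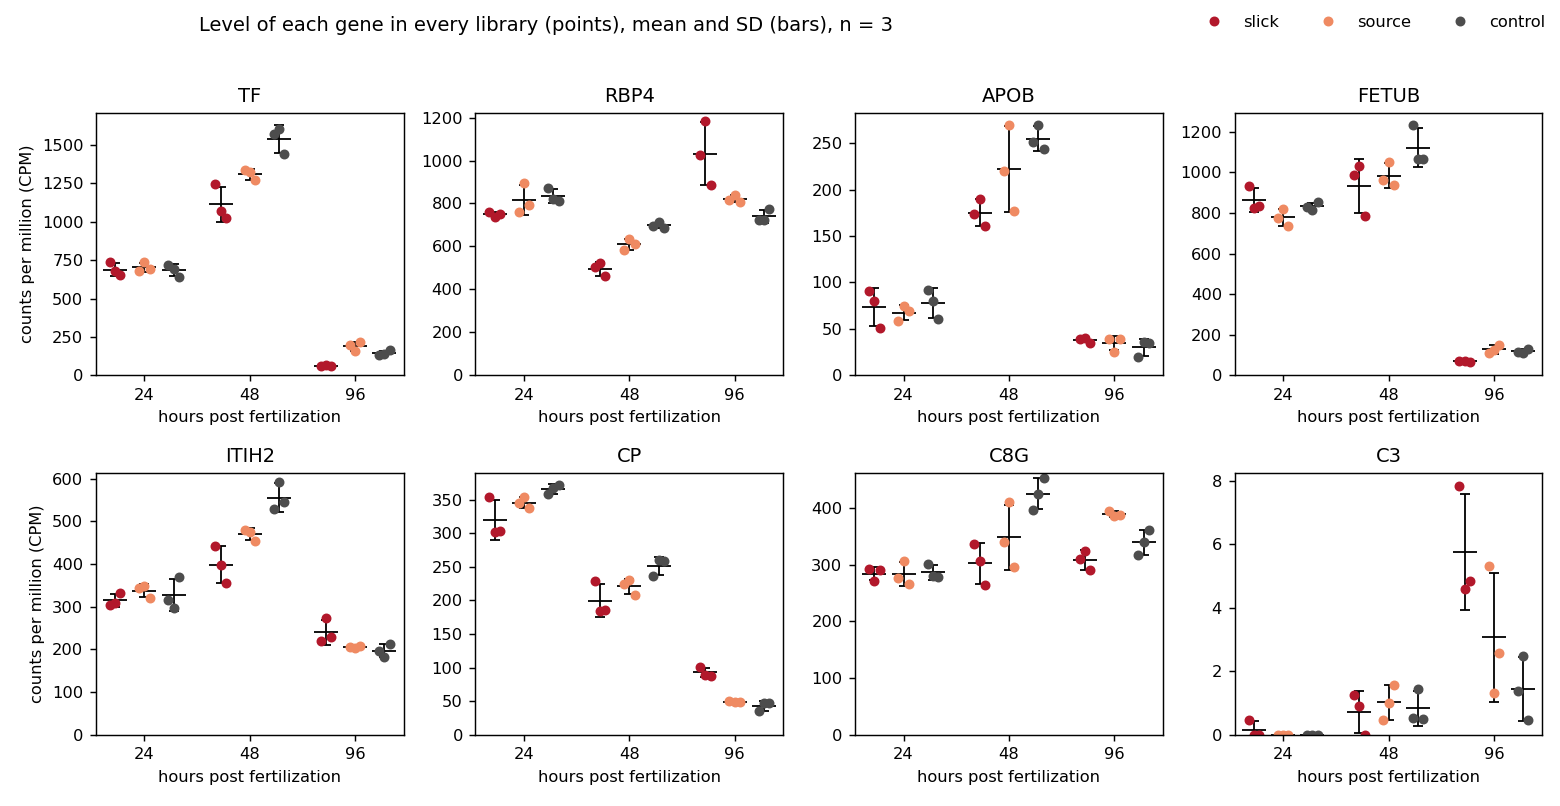
Level of each of the 8 genes in CPM (vertical axes, linear and from 0) at 24, 48 and 96 hpf, with slick, source and control from left to right at each stage. Points are libraries and bars the mean and SD (n = 3). At 48 hpf all slick points of the first 7 genes lie below all control points, and at 96 hpf slick TF and FETUB lie below the controls while RBP4, ITIH2, CP and C3 lie above them.

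TF, the iron carrier of plasma, was lower in slick oil at 48 and at 96 hpf. At 48 hpf its level was 1245, 1072 and 1028 CPM in the slick libraries, 1340.3, 1322 and 1269.8 CPM in the source libraries and 1572, 1608 and 1439 CPM in the control libraries. The 3 groups did not overlap, with slick lowest and control highest. Slick embryos held 0.725 times the control level (log2 change -0.46, SE 0.0538, edgeR adjusted p = 1.2e-08). At 96 hpf TF stood at 61.4, 67.5 and 57.9 CPM in slick larvae, 195, 157 and 213 CPM in source larvae and 134, 141 and 161 CPM in control larvae. All slick larvae lay below all others, whereas 2 of the source libraries lay above every control and 1 within their range. The slick level was 0.446 times that of controls (log2 change -1.17, SE 0.0906, edgeR adjusted p = 3.5e-23), and the source level was 1.32 times (log2 change 0.40, SE 0.073, edgeR adjusted p = 8.9e-05). At 24 hpf the groups overlapped, at 736, 678 and 650.1 CPM in slick, 679, 737 and 692 CPM in source and 721, 693 and 641 CPM in control embryos. Over the 9 groups the order ran from the 48 hpf groups down through those of 24 hpf to those of 96 hpf. Neighbours in it overlapped among the 24 hpf groups and between source and control at 96 hpf.

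CP, the copper-carrying ferroxidase, moved the other way from TF in slick larvae. Its level at 96 hpf was 101, 89.6 and 88.2 CPM in slick oil, 49.6, 48.4 and 48.3 CPM in source oil and 34.9, 46.7 and 47.4 CPM in controls. The 3 ranges did not meet, slick being highest and source only just above control. The slick level was 2.25 times that of controls (log2 change 1.17, SE 0.0997, edgeR adjusted p = 2.3e-20), and the source difference did not pass the test (log2 change 0.21, SE 0.12, edgeR adjusted p = 0.57). At 48 hpf CP had 228, 185 and 186 CPM in slick embryos, 224, 230.3 and 208 CPM in source embryos and 236, 260.2 and 258 CPM in controls, and both oil groups lay below the controls. The slick embryos were lower at 0.796 times the control level (log2 change -0.33, SE 0.0655, edgeR adjusted p = 0.0007), and the source difference missed the threshold (log2 change -0.19, SE 0.0656, edgeR adjusted p = 0.15). At 24 hpf slick embryos had 354, 302 and 303 CPM, source embryos 345, 354 and 338 CPM and control embryos 358, 367 and 372 CPM. Slick and source each lay below the controls there, but neither difference passed the test (adjusted p = 0.13 and 0.64, edgeR). Without slick replicate 1, which was the highest of its group, the slick difference at 24 hpf was called (log2 change -0.28, adjusted p = 0.035). With RBP4, CP made up the 2 of 7 members whose slick and control groups did not overlap at 24 hpf, beside 12.7% of all features tested.

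In controls CP was the one member called lower at both steps, and its highest group mean was 366 ± 7.30 CPM (SD, n = 3) in 24 hpf controls. It was called lower at 48 hpf against 24 hpf (log2 change -0.54, SE 0.0627, edgeR adjusted p = 1.6e-12) and at 96 hpf against 48 hpf (log2 change -2.57, SE 0.0799, edgeR adjusted p = 1.5e-51). TF had its highest group mean, 1539.9 ± 89.1 CPM, in 48 hpf controls. Of 10 other iron and copper handling genes tested in slick oil at 48 hpf, none passed the test with edgeR or DESeq2. An unadjusted edgeR p below 0.05 was found for 4 of them, beside 1113 of 8060 features. At 96 hpf 3 of 10 rose and none fell. The 3 were HEPHL1, a ferroxidase related to CP (log2 change 0.71, SE 0.12, edgeR adjusted p = 7.6e-07), FTH1, the ferritin heavy chain that stores iron (log2 change 0.32, SE 0.056, edgeR adjusted p = 1.3e-06), and SLC40A1, the iron exporter ferroportin (log2 change 0.44, SE 0.14, edgeR adjusted p = 0.011). The call of SLC40A1 was lost without control replicates 12 and 13, without slick replicate 7, with DESeq2 and with summed table lines. HEPHL1 averaged 50.8 ± 5.62 CPM in slick larvae and 31.5 ± 3.07 CPM in control larvae (SD, n = 3 each). TFRC, the cellular transferrin receptor, was not called in slick larvae (log2 change -0.06, SE 0.15, edgeR adjusted p = 0.85).

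RBP4, the plasma carrier of retinol, was lower in slick oil at 48 hpf and higher at 96 hpf. Slick embryos at 48 hpf had 502, 521 and 460.5 CPM, source embryos 585, 636 and 610.5 CPM and control embryos 697, 712 and 687 CPM. The 3 groups were separate, and all slick and source libraries also lay below every control library of any stage. The slick level was 0.709 times the control level (log2 change -0.50, SE 0.0523, edgeR adjusted p = 6.6e-10). At 96 hpf the order was turned round, with 1024, 1184 and 888 CPM in slick larvae, 817, 839 and 809 CPM in source larvae and 724, 724 and 776 CPM in control larvae. Each slick larval library lay above every control library of any stage, and source lay above the 96 hpf controls. Slick larvae were at 1.43 times the control level (log2 change 0.52, SE 0.056, edgeR adjusted p = 2.6e-14), while the source difference was not called (log2 change 0.16, SE 0.0566, edgeR adjusted p = 0.19). At 24 hpf RBP4 had 760.0, 739 and 752 CPM in slick embryos, 758, 893 and 794 CPM in source embryos and 873, 821 and 811 CPM in control embryos. Slick lay below control with no overlap, yet the difference did not pass the test (log2 change -0.15, SE 0.0495, edgeR adjusted p = 0.17). In a fit of slick and control with a replicate block RBP4 was called lower there. Whether the replicate numbers pair these samples could not be decided. In the order of the 9 groups slick at 96 hpf stood first and slick at 48 hpf last, and neighbours from control at 24 hpf down to control at 96 hpf overlapped.

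Of 5 other genes of retinol transport and metabolism tested in slick larvae at 96 hpf, 1 rose and 1 fell. Of 4 tested in slick embryos at 48 hpf none passed the test with edgeR or DESeq2. An unadjusted edgeR p below 0.05 was found for 1 of them, beside 1113 of 8060 features. STRA6, the membrane receptor that takes retinol from RBP4 into cells, was lower, averaging 20.3 ± 4.14 CPM in slick larvae and 44.0 ± 4.40 CPM in controls (log2 change -1.09, SE 0.14, edgeR adjusted p = 1.2e-10). The source larvae had 44.5 ± 2.88 CPM of STRA6 (SD, n = 3). RBP5, an intracellular retinol-binding protein, was higher (log2 change 0.33, SE 0.083, edgeR adjusted p = 0.0013), a call that was lost without slick replicate 7 and with summed table lines. In controls STRA6 rose strongly between 48 and 96 hpf (log2 change 4.90, SE 0.22, edgeR adjusted p = 6.8e-39), when RBP4 was not called.

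APOB, the backbone of very low and low density lipoproteins, had its peak at 48 hpf. Its levels there were 174, 190.1 and 161 CPM in slick, 221, 269.8 and 177 CPM in source and 251, 269.9 and 244 CPM in control embryos. Slick lay below control without overlap, whereas source spanned the range between them and reached the highest control. APOB was at 0.688 times the control level in slick embryos (log2 change -0.54, SE 0.0774, edgeR adjusted p = 2.1e-06), and the source difference was not called (log2 change -0.20, SE 0.0758, edgeR adjusted p = 0.21). Without source replicate 14, its highest source library, that difference was called (log2 change -0.36, adjusted p = 0.015). At 96 hpf APOB was low in every group, at 38.8, 40.0 and 35.1 CPM in slick, 39.0, 25.5 and 39.4 CPM in source and 19.9, 36.3 and 34.3 CPM in control larvae. Slick and control overlapped, and the control that combined replicates 10 and 11 was the lowest of its group. The slick difference at 96 hpf passed the test narrowly (log2 change 0.40, SE 0.14, edgeR adjusted p = 0.031). It was lost without control replicates 10 and 11 (log2 change 0.13, adjusted p = 0.62), without slick replicate 7 or 8 (adjusted p = 0.081 and 0.11) and with DESeq2 (adjusted p = 0.28). At 24 hpf the groups overlapped, at 90.9, 79.7 and 50.9 CPM in slick, 58.7, 74.9 and 69.0 CPM in source and 92.2, 80.4 and 60.2 CPM in control embryos. The 3 groups of 48 hpf thus stood above those of 24 hpf and these above those of 96 hpf, with overlap between neighbours within a stage.

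Among 13 other lipoprotein genes tested at 48 hpf 2 fell and none rose in slick embryos. These were ABCA1, which exports cholesterol to nascent lipoproteins (log2 change -0.27, SE 0.056, edgeR adjusted p = 0.00095), and LCAT, the plasma enzyme that esterifies cholesterol (log2 change -0.35, SE 0.079, edgeR adjusted p = 0.003). LCAT lost its call without slick replicate 6, with DESeq2 and with summed lines, and DESeq2 called 1 of the 13. At 96 hpf 3 of 12 rose, among them LCAT (log2 change 0.58, SE 0.16, edgeR adjusted p = 0.0037). The 2 that fell were ANGPTL4, an inhibitor of lipoprotein lipase (log2 change -0.62, SE 0.094, edgeR adjusted p = 3.1e-08), and LPL, lipoprotein lipase itself (log2 change -0.35, SE 0.12, edgeR adjusted p = 0.026). LPL lost its call without any 1 of control replicates 10 and 11, slick replicate 7 or slick replicate 9, and with DESeq2. LCAT shared with APOB a fall in controls between 48 and 96 hpf (log2 change -3.03, SE 0.1, edgeR adjusted p = 1.7e-49).

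FETUB, a fetuin that inhibits proteases, was lower in slick larvae at 96 hpf. Its levels were 70.6, 71.2 and 62.7 CPM in slick, 107, 126 and 149 CPM in source and 113, 109.9 and 131 CPM in control larvae. All slick libraries lay below all others, and source overlapped control. The slick level was 0.602 times that of controls (log2 change -0.73, SE 0.0909, edgeR adjusted p = 1.7e-11), and the source difference was not called (log2 change 0.15, SE 0.0797, edgeR adjusted p = 0.56). At 48 hpf FETUB had 987, 1031 and 783 CPM in slick, 963, 1053 and 936 CPM in source and 1233, 1066 and 1065 CPM in control embryos. Both oil groups lay below the controls by small margins. The slick change was the smallest among the 7 members at that stage (log2 change -0.26, SE 0.0625, edgeR adjusted p = 0.0066). It was lost without slick replicate 6 (adjusted p = 0.22), without control replicates 4 and 5 (adjusted p = 0.17) and with DESeq2 (adjusted p = 0.58). At 24 hpf the slick embryos had 932, 823 and 835 CPM, the source embryos 777, 819.8 and 737 CPM and the controls 828, 815 and 853 CPM, and each oil group overlapped the controls. Neighbours in the order of the 9 groups overlapped from source at 48 hpf down to source at 24 hpf, after which the level dropped to that of the 96 hpf groups.

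ITIH2, a heavy chain of the inter-alpha-trypsin inhibitor complex that binds hyaluronan, was lower in slick oil at 48 hpf and higher at 96 hpf. At 48 hpf its levels were 442, 398 and 354 CPM in slick, 480.4, 475 and 454 CPM in source and 528, 593 and 546 CPM in control embryos. The 3 groups were separate, with slick lowest. Slick embryos had 0.718 times the control level (log2 change -0.48, SE 0.0587, edgeR adjusted p = 5.7e-08). At 96 hpf ITIH2 had 219, 274 and 229 CPM in slick, 205, 202 and 207 CPM in source and 197, 182 and 213 CPM in control larvae. Slick lay above both other groups, which overlapped each other. The slick level was 1.26 times the control level (log2 change 0.34, SE 0.0669, edgeR adjusted p = 2.4e-05), and source was not called (log2 change 0.08, SE 0.0684, edgeR adjusted p = 0.8). At 24 hpf the groups overlapped, at 304, 309 and 333 CPM in slick, 344, 349 and 319.6 CPM in source and 315, 297 and 369.9 CPM in control embryos. By group mean the 48 hpf groups stood above those of 24 hpf, and these above those of 96 hpf, although the lowest slick library of 48 hpf lay below the highest control of 24 hpf.

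Of related inhibitors, 3 were tested against control at 48 and at 96 hpf, and none passed the test in either oil with edgeR or DESeq2 or had an unadjusted edgeR p below 0.05. AMBP, the precursor of the light chain that joins ITIH2 in the same complex, averaged 2.71 ± 0.384 CPM in slick larvae and 2.57 ± 0.125 CPM in controls (SD, n = 3 each). These levels are low, and no test of their difference is given. In controls AMBP, like ITIH2, rose between 24 and 48 hpf (log2 change 0.68, SE 0.22, edgeR adjusted p = 0.0061) and fell between 48 and 96 hpf (log2 change -2.57, SE 0.24, edgeR adjusted p = 6.7e-17). SERPIND1, an inhibitor of thrombin, also rose (log2 change 2.35, SE 0.2, edgeR adjusted p = 4.4e-19) and then fell (log2 change -1.95, SE 0.15, edgeR adjusted p = 1.4e-21) in controls.

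C8G, a subunit of the complement membrane attack complex and a lipocalin by fold, was lower in slick oil at 48 hpf but not at 96 hpf by the test. At 48 hpf it had 337, 306 and 265 CPM in slick, 339, 410.0 and 297 CPM in source and 398, 425 and 453 CPM in control embryos. Slick lay below control, and source spread from the slick into the control range. The slick embryos had 0.714 times the control level (log2 change -0.49, SE 0.0707, edgeR adjusted p = 2.7e-06). At 96 hpf its levels were 311, 325 and 290.4 CPM in slick, 396, 387 and 388 CPM in source and 317, 341 and 361 CPM in control larvae. Slick overlapped control, and source lay above both. The slick difference was not called (log2 change -0.09, SE 0.0604, edgeR adjusted p = 0.3). The source larvae were at 1.16 times the control level (log2 change 0.22, SE 0.0587, edgeR adjusted p = 0.034), a call that was lost in 5 of 6 fits that left out 1 library, each except the one without control replicate 14, and with DESeq2. At 24 hpf the groups overlapped, with 292, 271 and 291 CPM in slick, 277, 307 and 266 CPM in source and 301, 279.9 and 279 CPM in control embryos. Control at 48 hpf had the highest mean of the 9 groups and did not overlap its neighbour, source at 96 hpf, and every pair of neighbours below overlapped.

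C3, the central complement component, had few counts. The slick larvae at 96 hpf had 17, 10 and 11 counts, or 7.84, 4.59 and 4.82 CPM, against 5.30, 1.32 and 2.57 CPM in source and 1.39, 2.47 and 0.452 CPM in control larvae. Slick lay above control without overlap and overlapped source. The slick level was 3.54 times the control level (log2 change 1.82, SE 0.41, edgeR adjusted p = 0.00025), and the source difference was not called (log2 change 0.87, SE 0.48, edgeR adjusted p = 0.6). Of 38 table lines for C3, the one used held 38 counts in slick larvae, 20 in source larvae and 18 in controls. At 48 hpf the groups held 5 counts in slick, 6 in source and 10 in control embryos, and at 24 hpf 1 in slick and none in source or control. The 48 hpf controls pooled 0.84 CPM, 1.58 times a floor of 3 counts over the 24 hpf control group. That ratio leaves out the counting error of the 48 hpf controls and is no lower bound. C3 was too low to be tested against control at 24 and 48 hpf.

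Only 4 other complement genes were tested of 15 with a counted line and 29 listed. At 96 hpf 3 were higher and 1 lower in slick larvae. CFI, the protease that cleaves activated C3, averaged 58.1 ± 8.95 CPM in slick and 27.2 ± 1.80 CPM in control larvae (log2 change 1.14, SE 0.12, edgeR adjusted p = 1.6e-14). CLU, clusterin, which restrains the membrane attack complex, was higher (log2 change 1.00, SE 0.21, edgeR adjusted p = 9.6e-05). VTN, vitronectin, was higher (log2 change 0.49, SE 0.16, edgeR adjusted p = 0.016), a call lost without control replicates 10 and 11 or slick replicate 8. C8B, another chain of complement component C8, was lower (log2 change -0.46, SE 0.18, edgeR adjusted p = 0.049), and this call was lost when any 1 of 5 of the 6 libraries was left out, namely any but control replicates 12 and 13. Both calls, of VTN and C8B, were also lost with DESeq2, which called 2 of the 4, and with summed lines. None of the 4 passed the test at 48 hpf in either oil with edgeR or DESeq2, or had an unadjusted edgeR p below 0.05.

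**Figure D2:**
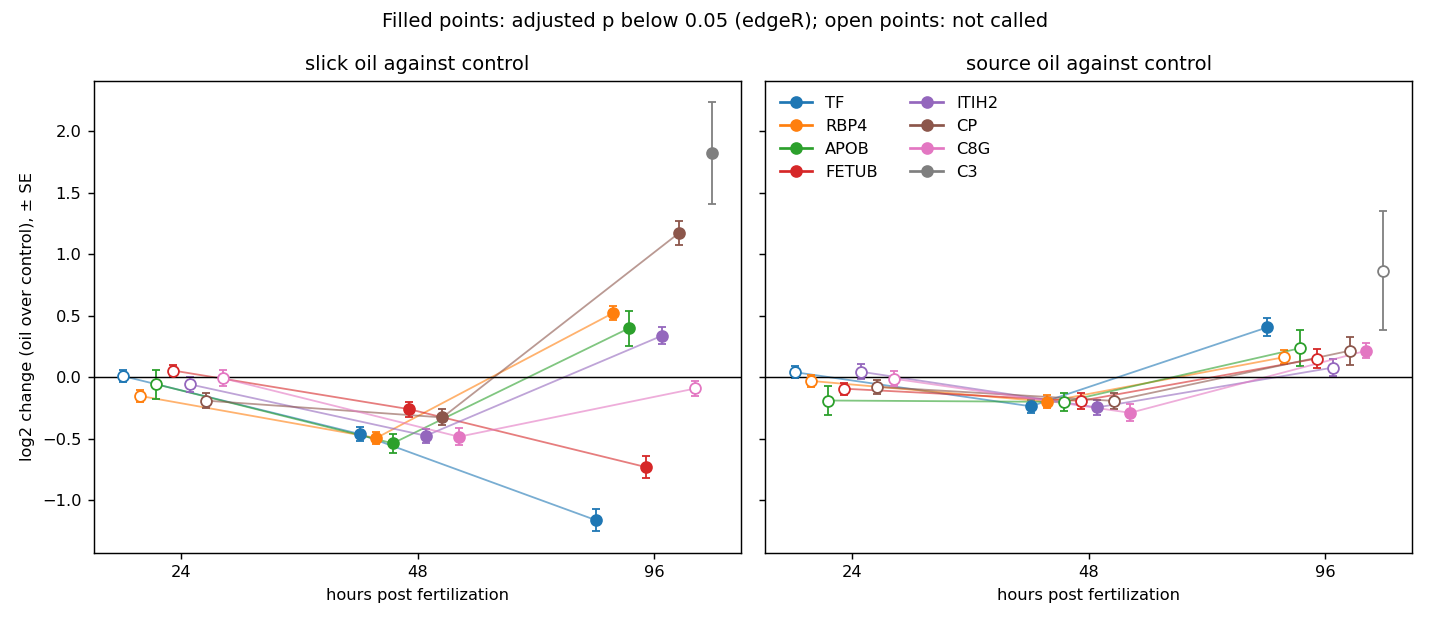
Log2 change of each gene in slick oil (left) and source oil (right) over control at 24, 48 and 96 hpf, with standard errors, n = 3 libraries a group. Filled points passed the edgeR test (adjusted p below 0.05) and lines join 1 gene. In slick oil all 7 points at 48 hpf lie below 0, and at 96 hpf they spread between -1.17 for TF and 1.82 for C3.

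In source oil 4 members were called lower at 48 hpf. TF had 0.848 times the control level (log2 change -0.24, SE 0.0536, edgeR adjusted p = 0.012), RBP4 0.87 times (log2 change -0.20, SE 0.0519, edgeR adjusted p = 0.033), ITIH2 0.843 times (log2 change -0.25, SE 0.0584, edgeR adjusted p = 0.018) and C8G 0.817 times (log2 change -0.29, SE 0.0705, edgeR adjusted p = 0.021). The source and control groups did not overlap for 5 of 7 members, beside 17.7% of features tested. Each of the 4 calls was lost when single libraries were left out: RBP4 without any 1 of the 6, TF without control replicates 4 and 5, control replicates 6 and 7, source replicate 14 or source replicate 15. ITIH2 was lost without control replicates 6 and 7 or any 1 source replicate, and C8G without control replicates 6 and 7, control replicates 8 and 9, source replicate 13 or source replicate 15, and with DESeq2. Fits without 1 library left between 0 and 2 of the 7 members called. For TF at 96 hpf, higher in source larvae, the call remained in all 6 such fits.

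Slick and source animals were also compared directly. At 24 hpf none of 7 members was called with edgeR or DESeq2, beside 0.219% of features. Of the 7, 2 had an unadjusted edgeR p below 0.05, beside 591 of 7757 features. At 48 hpf 3 of 7 were lower in slick than in source embryos and none higher (beside 0.273% of features called lower and 0.471% higher). RBP4 was at 0.815 times the source level (log2 change -0.30, SE 0.0547, edgeR adjusted p = 0.0012) and remained called in every fit without 1 library. TF (log2 change -0.23, SE 0.055, edgeR adjusted p = 0.028) lost its call in 5 of 6 such fits, all but the one without slick replicate 4. APOB (log2 change -0.34, SE 0.0847, edgeR adjusted p = 0.036) lost it without slick replicate 6, source replicate 13 or source replicate 14, and with DESeq2. At 96 hpf 3 of 8 members were higher and 3 lower in slick than in source larvae, beside 6.99% and 6.47% of features. TF had 0.337 times the source level (log2 change -1.57, SE 0.0917, edgeR adjusted p = 5e-33), FETUB 0.542 times (log2 change -0.88, SE 0.0954, edgeR adjusted p = 4.1e-14) and C8G 0.808 times (log2 change -0.31, SE 0.0619, edgeR adjusted p = 5.2e-05). CP had 1.94 times (log2 change 0.96, SE 0.11, edgeR adjusted p = 2.6e-13), RBP4 1.28 times (log2 change 0.36, SE 0.0569, edgeR adjusted p = 1.8e-07) and ITIH2 1.2 times (log2 change 0.26, SE 0.0704, edgeR adjusted p = 0.0044), the last being lost without slick replicate 8 (adjusted p = 0.22) and with DESeq2. APOB and C3 were not called (adjusted p = 0.56 and 0.11, edgeR), and C3 passed without source replicate 16 (adjusted p = 0.032). The oils carry the same labelled concentration, and a difference in oil and in dissolved dose cannot be told apart here.

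Whether the slick change differed between stages was tested in 1 model over all 9 groups. From 48 to 96 hpf the slick change shifted upward for 5 of 8 members and downward for 2, beside 5.03% and 6.61% of 8898 features. CP shifted by 1.46 on the log2 scale (SE 0.12, edgeR adjusted p = 7.6e-18) and RBP4 by 0.98 (SE 0.081, adjusted p = 7.6e-18). APOB shifted by 0.90, which DESeq2 did not call, ITIH2 by 0.78 and C8G by 0.35, the last being lost without slick replicate 6 of 48 hpf. TF shifted by -0.74 (SE 0.11, adjusted p = 2e-07) and FETUB by -0.51 (SE 0.12, adjusted p = 0.0012), further down in both cases. From 24 to 48 hpf the slick change shifted downward for 4 of 8 members, namely TF (-0.47), RBP4 (-0.34), ITIH2 (-0.42) and C8G (-0.48), where 0.483% of features did. DESeq2 called TF and C8G among these. In source oil no member's change differed between 24 and 48 hpf by edgeR or DESeq2 (0 of 8, beside 0.146% of features). For that step 3 members had an unadjusted edgeR p below 0.05, beside 707 of 8898 features. From 48 to 96 hpf 3 members shifted upward in source oil, where 0.258% of features did. These were TF (0.63), C8G (0.49) and RBP4 (0.35). C3 is among the 8 for the shifts between 24 and 48 hpf, but its 24 hpf controls held no counts. Its tests there could decide nothing (SE 2.1 in slick and 644 in source oil).

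Placed against the controls' own course, slick embryos at 48 hpf lay between the 24 and 48 hpf control means for TF, APOB, FETUB, ITIH2 and C8G. RBP4 and CP had group means below both. At 96 hpf the slick means of APOB, ITIH2 and CP lay between those of the 96 and 48 hpf controls, and that of C8G below both. TF and FETUB had slick levels below every control library of any stage, and RBP4 and C3 had slick levels above every one. The summed level of the 8 members was 3238 to 3917 CPM in slick embryos and 4692 to 4936 CPM in control embryos at 48 hpf, and 1655 to 2055 CPM in slick larvae and 1540.0 to 1725 CPM in control larvae at 96 hpf. The sum overlapped between slick and control larvae although 6 of its 8 members did not, beside 34.1% of features whose groups did not overlap at that stage. At 48 hpf the slick and control groups did not overlap for 7 of 7 members tested, beside 18.7% of features.

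Other plasma proteins of the liver moved in both directions. At 48 hpf 2 of 8 tested fell and none rose in slick embryos: F2, prothrombin (log2 change -0.61, SE 0.1, edgeR adjusted p = 6.2e-05), and IGFBP2, a carrier of insulin-like growth factors (log2 change -0.47, SE 0.081, edgeR adjusted p = 6.2e-05). At 96 hpf 4 of 7 rose and 1 fell in slick larvae. IGFBP1 (log2 change 2.03, SE 0.12, edgeR adjusted p = 2.7e-34), whose counted line lay at 0.507 times the mean in the authors' deposited table, F2 (log2 change 0.79, SE 0.11, edgeR adjusted p = 3.6e-10) and PLG, plasminogen (log2 change 0.27, SE 0.07, edgeR adjusted p = 0.0015), were higher and IGFBP2 was lower (log2 change -0.49, SE 0.096, edgeR adjusted p = 2.1e-05). F2 averaged 46.4 ± 10.4 CPM in slick and 71.5 ± 4.27 CPM in control embryos at 48 hpf, and 68.8 ± 8.35 CPM in slick and 41.0 ± 0.955 CPM in control larvae at 96 hpf. F2 was thus called lower at 48 hpf and higher at 96 hpf, as were RBP4, ITIH2, CP and, more narrowly, APOB.

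**Figure D3:**
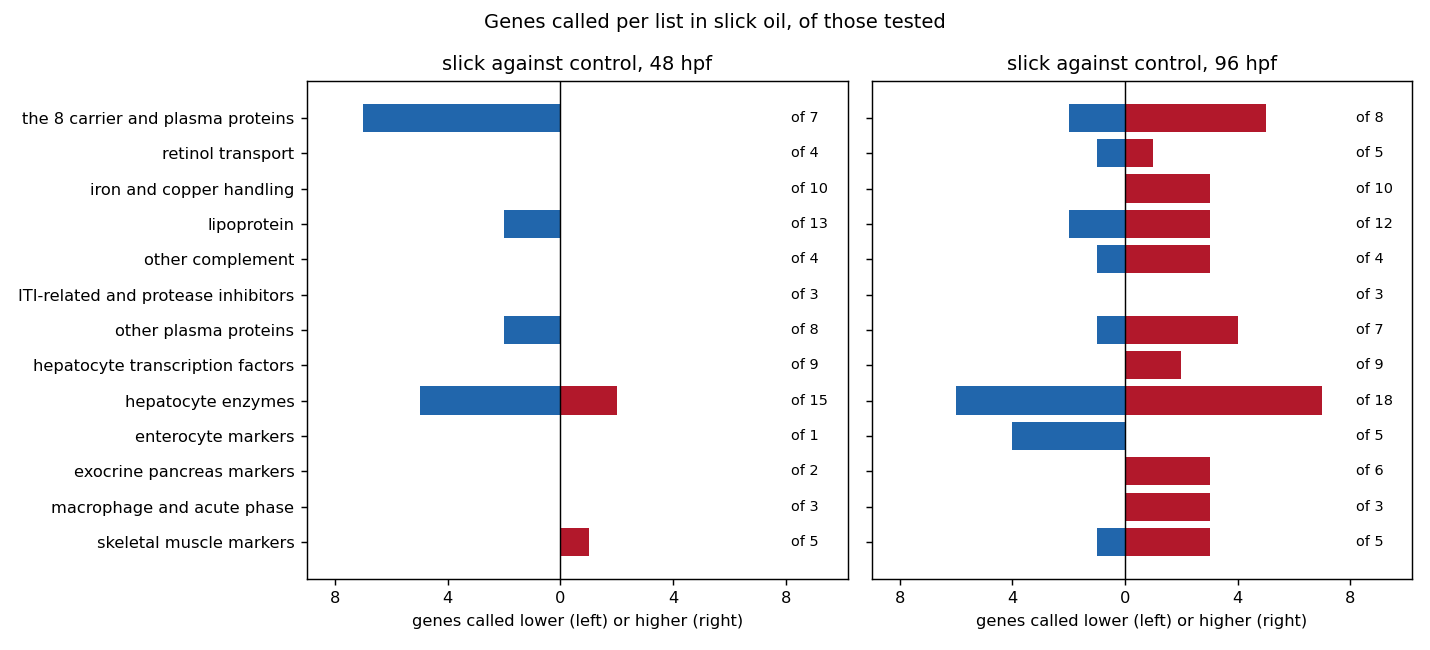
Number of genes called lower (left of 0) or higher (right of 0) in slick oil than in controls at 48 hpf (left) and 96 hpf (right), for the 8 genes and 12 other lists, with the number tested at the right. At 48 hpf 7 of 7 of the carrier and plasma proteins were lower. Of 15 hepatocyte enzymes 5 were lower and 2 higher, and none of 9 hepatocyte transcription factors was called. The genes and lists were chosen with earlier results of these data known.

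Genes that mark hepatocytes were counted in the same fits. Of 9 hepatocyte transcription factors none passed the test in either oil at 48 hpf with edgeR or DESeq2. An unadjusted edgeR p below 0.05 was found for 1 in slick and 2 in source oil, beside 1113 and 1027 of 8060 features. At 96 hpf 2 of 9 were higher in slick larvae, NR5A2 (log2 change 0.53, SE 0.13, edgeR adjusted p = 0.00069), whose counted line lay at 1.81 times the mean in the authors' deposited table, and HNF4A (log2 change 0.31, SE 0.093, edgeR adjusted p = 0.0089), the second being lost without control replicates 12 and 13 or slick replicate 8, with summed lines and with DESeq2, which called 1 of the 9. Of 15 hepatocyte enzymes tested at 48 hpf 5 fell and 2 rose in slick embryos, and of 18 at 96 hpf 6 fell and 7 rose. G6PC, which releases glucose (log2 change -0.82, SE 0.085, edgeR adjusted p = 3.8e-10), and BHMT, of methionine metabolism (log2 change -0.37, SE 0.054, edgeR adjusted p = 2.4e-06), were lower at 48 hpf, while HGD and FAH of tyrosine breakdown were higher (log2 change 1.70, SE 0.26, edgeR adjusted p = 4.6e-06; log2 change 0.81, SE 0.13, edgeR adjusted p = 2e-05). At 96 hpf the urea-cycle genes ASS1 (log2 change -1.34, SE 0.11, edgeR adjusted p = 8.9e-22) and CPS1 (log2 change -1.25, SE 0.14, edgeR adjusted p = 2.3e-14) and BHMT (log2 change -0.60, SE 0.051, edgeR adjusted p = 3.7e-20) were lower and HGD was higher (log2 change 0.85, SE 0.11, edgeR adjusted p = 2.9e-11). The part of these genes in the members' changes was not tested.

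**Figure D4:**
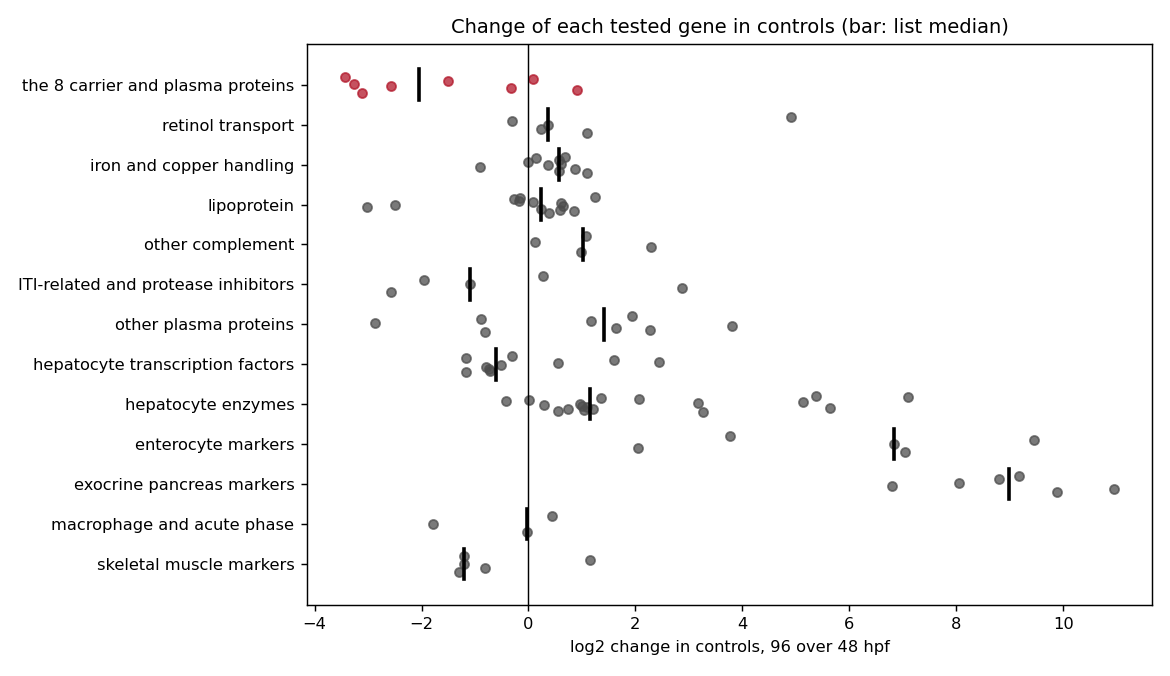
Log2 change in controls from 48 to 96 hpf (horizontal axis, 96 over 48 hpf) of each tested gene of the 8 carrier and plasma proteins (red) and of 12 other lists (grey), with a bar at each list's median. The 8 genes have a median of -2.04, and the hepatocyte enzymes 1.15.

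In controls the members and the hepatocyte enzymes parted between 48 and 96 hpf. Of 8898 features tested over that interval, 34.9% were called higher and 27.4% lower. While 6 of 8 members fell, 16 of 18 hepatocyte enzymes rose and 1 fell, with CYP7A1, the rate-limiting enzyme of bile acid synthesis, showing the smallest adjusted p (log2 change 5.64, SE 0.11, edgeR adjusted p = 5.7e-68). AGXT (log2 change 3.26, SE 0.077, edgeR adjusted p = 5.5e-62), PCK1 (log2 change 2.07, SE 0.057, edgeR adjusted p = 3.1e-56) and TDO2 (log2 change 5.37, SE 0.23, edgeR adjusted p = 1.7e-39) rose with it. Among other plasma proteins 5 of 8 rose over that interval, led by FGG, a chain of fibrinogen (log2 change 3.80, SE 0.098, edgeR adjusted p = 4e-58), and 3 fell. Of the hepatocyte transcription factors 3 of 10 rose and 6 fell. ONECUT1 had the smallest adjusted p and fell (log2 change -1.16, SE 0.1, edgeR adjusted p = 4.2e-19). Next by adjusted p were NR1H4 (log2 change 2.445, SE 0.228, edgeR adjusted p = 3.1e-17) and NR5A2 (log2 change 1.595, SE 0.153, edgeR adjusted p = 1.4e-16), which rose.

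Markers of other cell types were also counted beside the members. In slick larvae at 96 hpf 4 of 5 enterocyte markers were lower, led by ANPEP, an aminopeptidase of the gut lining (log2 change -1.06, SE 0.068, edgeR adjusted p = 1.5e-29), and the list summed to 215.9 to 222.3 CPM in slick and 422.9 to 438.7 CPM in control larvae. All 3 macrophage and acute phase genes tested were higher, STAT3 (log2 change 0.82, SE 0.062, edgeR adjusted p = 3.6e-24), MPEG1 (log2 change 1.75, SE 0.31, edgeR adjusted p = 1.5e-06) and CSF1R (log2 change 0.45, SE 0.15, edgeR adjusted p = 0.019), and the list summed to 418.5 to 478.2 CPM in slick and 263.1 to 274.7 CPM in control larvae. CSF1R was lost without control replicates 10 and 11, slick replicate 7 or slick replicate 8, with DESeq2 and with summed lines. The enterocyte call of MEP1A was lost whichever 1 of the 6 libraries was left out, and with DESeq2. Exocrine pancreas markers were higher for 3 of 6 (PRSS1, CELA1 and CEL), each a call that was lost without slick replicate 8. The call of CELA1 was also lost without control replicates 12 and 13 or slick replicate 9, and that of CEL without control replicates 10 and 11 or 12 and 13. With DESeq2 CELA1 and CEL were not called, and with summed lines none of the 3 was. The counted line of CEL lay at 0.472 times the mean in the authors' deposited table. Skeletal muscle markers were higher for 3 and lower for 1 of 5. At 48 hpf, when all 7 members were lower in slick embryos, no enterocyte, exocrine pancreas or macrophage marker passed the test with edgeR or DESeq2 (of 1, 2 and 3 tested) or had an unadjusted edgeR p below 0.05. Of 5 muscle markers 1 was higher, MYBPC2, a call lost without slick replicate 5 or 6 or without control replicates 4 and 5 or 6 and 7, and with DESeq2 and summed lines. The part of these lists in the members' changes was not tested.

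The oil contrasts also stand in the authors' own tables. For slick oil at 96 hpf the authors' deposited table has log2 changes of -1.12 for TF, 1.10 for CP, 0.51 for RBP4 and -0.70 for FETUB. For APOB in those larvae the authors' deposited table has 0.35 with an adjusted p of 0.175, and for FETUB in slick embryos at 48 hpf it has -0.23 with an adjusted p of 0.178. For C3 in slick larvae the authors' deposited table has a log2 change of 1.09 with an adjusted p of 0.000602. For source oil the authors' deposited table has an adjusted p of 0.0698 for C8G at 48 hpf, which was called here, and of 0.00378 for RBP4 at 96 hpf, which was not. Whether the authors summed control samples, or drew changes of low counts toward 0, is not given. Their values and those here may thus not be the same measure.

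Among 4900 features with at least 50 counts on average, a few were most like the members over the 9 group means. The mean standardised profile of the 8 members was most like that of YES1 (Pearson r = 0.938), followed by a feature whose identifier has no symbol in the tables (r = 0.931), CTSA (r = 0.93), YY1 (r = 0.926) and ONECUT1 (r = 0.925). SHMT1 was most like TF (r = 0.992), KAT7 most like FETUB (r = 0.998), SOX11 most like APOB (r = 0.996), YY1 most like ITIH2 (r = 0.981) and KBTBD8 most like CP (r = 0.991). RAB2A was most like RBP4 (r = 0.946), SREBF2 most like C3 (r = 0.977) and CAPN15 most like C8G (r = 0.877). These are the highest of 4900 values over 9 means that share stage and library scaling. Every r of C3 rests on 98 counts in all, with none in source or control embryos at 24 hpf. Among the members themselves TF and FETUB (r = 0.977) and APOB and ITIH2 (r = 0.976) were most alike, while the most opposed were FETUB and C3 (r = -0.81), CP and C3 (r = -0.774), TF and C3 (r = -0.718) and TF and RBP4 (r = -0.692), and all are given as descriptions over the same 9 means.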

How the data were processed

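Each replicate was a pool of 30 whole embryos or larvae, per the labels' protocols, and RNA was sequenced after TruSeq library preparation. Separate samples of a group were taken as replicates, and since no label ties them to separate spawns, the p-values measure only the spread between these samples, which may be technical. The authors deposited raw counts, whole numbers without normalization, in 42538 table lines with human gene identifiers. The submitters' processing notes name HTSeq, DESeq2 and hg19, without version or role. Not given in the sources used here is how mahi-mahi reads were assigned to human identifiers. Per the file headers, the authors' deposited comparison tables hold log2 fold changes with standard errors, a mean of size-factor-normalised counts (a signal value), a Wald score, and a raw and an adjusted p-value.

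Lines lacking an identifier (332 lines, with 0.043% or less of any sample's counts) were dropped, each identifier kept its line of highest total, and 256 identifiers with identical counts were joined. Of 32 samples, 5 pairs of controls did not detectably differ beyond sampling noise (chi-square p of at least 0.001, genes of 20 or more counts) and were summed, which left 27 libraries. Each stage was fitted by itself with edgeR 4.0.16 (R 4.3.3; TMM, filterByExpr, quasi-likelihood test, Benjamini-Hochberg adjustment over all features tested), and a gene was called at an adjusted p below 0.05. Changes over development, and differences of oil changes between stages, came from 1 fit over all 9 groups. The code was tested on simulated data. Alternatives were DESeq2 1.42.0, other scaling and filtering, other choices of table line, 32 separate samples, 1 fit over all groups, a replicate block and leaving out each library.

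The 8 genes and all lists were chosen with earlier results of these data known. From each other list the called genes with the smallest adjusted p, at most 4 for a comparison, could be named; 1 such result is not reported here. The values of TFRC, which was tested and not called, and of AMBP, for which no test is given, in slick larvae were added after they were seen. Likeness is Pearson's r over the 9 group means of log2 CPM. Standard errors (SE) were derived from edgeR's quasi-likelihood test, which takes in the spread between libraries. C3's floor was 3 counts over the group and covers counting error only.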

Additional observations from a re-analysis of the deposited data

Results flagged for a closer look

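For 14 results the change against control differed between stages by a test of that difference, an interaction term in the edgeR model over all 9 groups (adjusted p below 0.05; log2 scale, later stage minus earlier). In slick oil the change moved down between 24 and 48 hpf for TF (-0.471), C8G (-0.478), ITIH2 (-0.421) and RBP4 (-0.344). The call of RBP4 was lost in 5 of 12 fits without 1 library (control replicates 2, 3, or 6 and 7, and slick replicates 1 or 6), and that of ITIH2 without control replicate 2 or slick replicate 6.

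Between 48 and 96 hpf the slick change moved up for CP (1.46), RBP4 (0.977), APOB (0.9), ITIH2 (0.777) and C8G (0.355), and down for TF (-0.74) and FETUB (-0.51). The shift of C8G was lost without slick replicate 6. In source oil the change moved up for TF (0.627), C8G (0.492) and RBP4 (0.347), and RBP4 was lost in 4 of 12 fits, those without control replicates 10 and 11, control replicates 12 and 13, source replicate 13 or source replicate 17. Groups of 3 libraries were not checked for a single outlying value of a gene.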

How the results depend on the processing

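No called change of a member reversed direction under any alternative run, nor did any called change of a named gene outside the tests between stages. Sign changes of results that were never called were not counted. Summing all table lines of a gene left 3 members called in slick oil at 48 hpf and 0 in source oil at 48 hpf, for slick against source at 48 hpf, in source oil at 96 hpf, for the slick shift between 24 and 48 hpf and for the source shift between 48 and 96 hpf. In that setting identical lines of a gene are counted more than once. DESeq2 called 1 member in source oil at 96 hpf and 2 for the slick shift between 24 and 48 hpf, and gave no adjusted p for C3 in slick larvae. In 1 fit over all groups 1 member was called in source oil at 96 hpf. Without 1 library in turn, the members called ranged from 0 to 1 in slick oil at 24 hpf, 0 to 2 in source oil at 48 hpf, 1 to 5 for slick against source at 48 hpf, 1 to 2 in source oil at 96 hpf, and 2 to 5 for the slick shift between 24 and 48 hpf.

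Slick and control samples share replicate numbers at 24 and 48 hpf. Same-numbered samples correlated in their deviations by at most 0.053, too weakly to decide whether the numbers pair them. Each slick sample at 24 hpf correlated best with its own number, but at 48 hpf only slick sample 5 did. There slick sample 4 correlated best with control sample 6 (r = 0.0555, own number -0.0344), and slick sample 6 with control sample 4. With the replicate block 1 member was called in slick oil at 24 hpf (RBP4), and 71 features at 24 hpf where 45 were called without it. At 48 hpf 7 members were called with the block, in a fit of slick samples 4, 5 and 6 and control samples 4, 5 and 6. That fit counted control samples 4 and 5 separately, though they did not detectably differ beyond sampling noise. It left out control samples 7, 8 and 9.

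Counts over all features moved by over 1.5 times as follows. Without 1 library in turn they ranged from 16 to 45 in slick and 53 to 111 in source oil and 4 to 20 for slick against source at 24 hpf, 170 to 285 in slick and 26 to 101 in source oil and 33 to 116 for slick against source at 48 hpf, and 46 to 105 in source oil at 96 hpf. The shifts between 24 and 48 hpf ranged from 33 to 74 in slick and 5 to 17 in source oil, and the source shift between 48 and 96 hpf from 32 to 76. With DESeq2, 131 calls became 78 in source oil at 24 hpf, 17 became 5 for slick against source at 24 hpf, 266 became 124 in slick and 106 became 58 in source oil at 48 hpf, and 60 became 37 for slick against source at 48 hpf. At 96 hpf 1808 became 1038 in slick oil, 94 became 49 in source oil and 1146 became 664 for slick against source. The slick shifts went to 34, where 60 were called, between 24 and 48 hpf and to 659, where 1036 were called, between 48 and 96 hpf. With summed lines slick, source and slick against source had 2, 13 and 1 calls at 24 hpf and 101, 8 and 17 at 48 hpf, source had 6 at 96 hpf, and the slick shift between 24 and 48 hpf had 25. The source shifts had 7 calls between 24 and 48 hpf, where 13 were called, and 0 between 48 and 96 hpf, where 58 were. In 1 fit over all groups slick had 18 and slick against source 10 at 24 hpf. Without the low-count filter slick against source had 110 at 48 hpf and the source shift between 24 and 48 hpf 31. With 32 separate samples source had 182 at 48 hpf and its shifts 22 and 113. The cause of these differences was not tested. C3, with 98 counts in all, was not tested against control at 24 and 48 hpf.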
